A study of Mus musculus with 2 samples.

Results

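The 8 genes described here, Slc12a1, Kcnj1, Bsnd, Umod, Ptger3, Egf, Ppp1r1a and Casr, are known for their expression in the thick ascending limb of the loop of Henle. They were chosen by name, with earlier results of these data known but by a rule that uses no measured value, and they are 8 of the 21938 protein-coding genes of the GENCODE M21 basic annotation. Open chromatin was mapped by DNase-seq, in which the nuclease DNase I cuts exposed DNA and the cut ends are sequenced, in whole kidney of male B6CASTF1/J mice at 25 days of age. These mice are first-generation hybrids of C57BL/6J and CAST/EiJ and carried no treatment or engineered allele that the labels name. The series holds 1 group of 2 biological replicates, so nothing was compared between conditions, and the comparisons are between genes, between sites and between the libraries. All pairs of values below are in the order replicate 1, replicate 2.

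The thick ascending limb reabsorbs salt without water. Its cells take up sodium, potassium and chloride through an apical cotransporter, return potassium to the lumen through a channel, and pass chloride to the blood through channels that need the subunit barttin. The lumen-positive voltage that results drives calcium and magnesium between the cells, and hormone and calcium receptors on the cells set the rate. The segment also makes uromodulin, the most abundant protein of normal urine. Several of the genes are active elsewhere too: Kcnj1 in principal cells of the collecting duct, Egf in the distal convoluted tubule, Bsnd in intercalated cells, and Casr in the parathyroid gland.

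The sequences that carry the results below were read from the mouse genome GRCm38.p6, on which mm10 is based, 5' to 3' on the strand of the gene. Capitals mark bases that lay in a footprint in both libraries, a footprint being a short stretch that a bound protein shields from the enzyme inside an open site. At promoters only the part upstream of the transcription start site (TSS) is shown. Umod (chr7:119479361-119479580, minus strand), Ptger3 (chr3:157566701-157566891, plus strand) and Ppp1r1a (chr15:103538004-103538100, minus strand) are shown at their 5' ends, as the open promoters of a urinary protein, a hormone receptor and a phosphatase inhibitor.
Umod: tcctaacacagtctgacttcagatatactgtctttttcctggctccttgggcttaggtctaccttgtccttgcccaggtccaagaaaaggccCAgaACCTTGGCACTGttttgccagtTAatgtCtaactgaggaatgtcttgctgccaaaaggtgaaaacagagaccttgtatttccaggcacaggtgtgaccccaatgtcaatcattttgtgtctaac
Ptger3: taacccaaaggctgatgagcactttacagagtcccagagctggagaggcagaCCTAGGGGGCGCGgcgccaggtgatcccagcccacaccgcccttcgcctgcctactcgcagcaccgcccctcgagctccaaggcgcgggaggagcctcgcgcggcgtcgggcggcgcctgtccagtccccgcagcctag
Ppp1r1a: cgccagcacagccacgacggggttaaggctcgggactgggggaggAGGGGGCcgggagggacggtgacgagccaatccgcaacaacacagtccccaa

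Kcnj1 (chr9:32384941-32385160, plus strand) and Egf (chr3:129725088-129725220, minus strand) are shown at a TSS inside the gene, because their highest promoter peak lay there and not at the 5' end.
Kcnj1, internal TSS: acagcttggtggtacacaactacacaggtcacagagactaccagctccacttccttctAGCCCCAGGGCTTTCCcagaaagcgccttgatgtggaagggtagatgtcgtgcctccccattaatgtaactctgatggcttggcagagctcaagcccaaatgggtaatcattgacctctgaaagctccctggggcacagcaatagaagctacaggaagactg
Egf, internal TSS: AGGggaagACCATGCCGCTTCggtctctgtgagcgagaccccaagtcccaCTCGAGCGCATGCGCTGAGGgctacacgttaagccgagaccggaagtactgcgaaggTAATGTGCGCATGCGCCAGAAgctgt

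The highest open sites away from promoters are shown for Slc12a1 in intron 21 (chr2:125214701-125214860, plus strand), for Casr in intron 1 (chr16:36545441-36545620, minus strand) and for Kcnj1 downstream of the gene (chr9:32405381-32405560, plus strand), because at these genes they were higher than the highest promoter peak in both libraries.
Slc12a1, intron 21: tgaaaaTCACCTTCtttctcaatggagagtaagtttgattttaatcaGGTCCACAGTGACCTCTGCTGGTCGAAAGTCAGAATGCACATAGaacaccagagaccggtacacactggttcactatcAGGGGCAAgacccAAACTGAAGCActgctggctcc
Casr, intron 1: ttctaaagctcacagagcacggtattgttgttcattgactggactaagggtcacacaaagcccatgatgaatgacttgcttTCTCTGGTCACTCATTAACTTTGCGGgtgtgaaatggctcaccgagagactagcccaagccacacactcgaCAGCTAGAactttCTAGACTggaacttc
Kcnj1, downstream: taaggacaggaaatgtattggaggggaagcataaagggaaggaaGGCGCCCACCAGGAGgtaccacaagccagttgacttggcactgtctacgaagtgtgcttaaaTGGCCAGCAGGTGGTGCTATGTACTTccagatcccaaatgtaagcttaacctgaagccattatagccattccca

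Replicate 1 had 125393 peaks and 237471 footprints, and replicate 2 had 177001 peaks and 493495 footprints. The read numbers are unknown, but the even steps in which low peak heights rise differed by a factor of 1.72, so replicate 2 would be the deeper library if heights were divided by depth. Of 8 markers of other kidney cells, 7 had a promoter peak in both libraries and Aqp2, of principal cells, had one in replicate 2 alone (0.462). None of 6 marker genes of other tissues (Alb, Myh6, Ins1, Gad1, Cyp11b1 and Ptprc) had one in either library. Peak height is the deposited signal at the peak, and it is compared between genes without any length scaling because each value belongs to 1 site of about 180 bp.

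All 8 genes had an open promoter in both libraries, that is a peak within 500 bp of any annotated TSS. The same held for 66.2% of all protein-coding genes in replicate 1, 68.0% in replicate 2 and 65.3% in both, so an open promoter is the common state of a gene in these data. With only the gene's 5' end counted, 7 of 8 had a peak in both libraries, Kcnj1 being the exception, against 62.5%, 64.7% and 61.6% of all genes. Most of the 8 promoters were low: apart from Egf, each lay below the 30th percentile of open promoters in both libraries, whose median heights were 7.36 and 6.63. In whole tissue, few cells with an open site cannot be told apart from many cells in which it is less open.

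Slc12a1 encodes the apical cotransporter NKCC2, the target of loop diuretics. Its promoter peak had heights of 0.974 and 0.979, which is 0.976 ± 0.0031 (SD, n = 2), at percentiles 11.7 and 14.2 of open promoters. The libraries thus gave almost the same low value. The midpoint of the peak lay in exon 1, 126 and 116 bp inside the gene, and the peak held 1 and 4 footprints.

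Kcnj1 encodes the apical potassium channel ROMK, which recycles potassium to the lumen. At its 5' end there was no peak in replicate 1, where no base within 500 bp was listed at a false discovery rate below 0.05, and a peak of 0.939 with 6 footprints in replicate 2. Its highest promoter peak lay 12.6 kb into the gene, at a TSS in the intron of the longest transcript, with heights of 1.26 and 2.76. That internal peak was present in both libraries and was 2.20 times higher in replicate 2, the widest gap between libraries among the 8 promoters.

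Bsnd encodes barttin, the subunit that the basolateral chloride channels of the segment and of the inner ear need. Its promoter peak stood at 2.11 and 2.68, percentiles 21.3 and 27.9, and held 1 and 3 footprints. The peak of replicate 1 covered the single TSS of the gene, and that of replicate 2 lay just upstream of it.

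Casr encodes the calcium-sensing receptor, which lowers salt and calcium reabsorption when blood calcium is high. It had the lowest promoter of the 8, with heights of 0.504 and 0.373 at percentiles 4.67 and 4.13. This peak lay between the annotated TSSs, 317 and 353 bp inside the gene, and its lowest false discovery rates were 0.0131 and 0.0354. It was in neither library's stricter peak list, so the open promoter of Casr rests on weak calls.

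Ptger3 encodes the EP3 receptor, through which prostaglandin E2 lowers cyclic AMP in the segment. Its promoter peak was level between the libraries at 2.28 and 2.25, percentiles 22.3 and 25.1, with 4 and 5 footprints. A second and lower peak over exon 1, of 0.298, was called in replicate 2 alone.

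Umod encodes uromodulin, which the segment secretes into the urine. Its promoter peak was 1.64 in replicate 1 and 2.34 in replicate 2, percentiles 18.0 and 25.7, with 3 and 6 footprints. It lay wholly upstream, centred 199 and 169 bp before the 5' end.

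Egf encodes the precursor of epidermal growth factor, which stands in the apical membrane and is shed into the urine. Its highest promoter peak, 9.95 and 11.5 (10.7 ± 1.09, SD, n = 2), lay at a TSS 30.2 kb inside the gene, over exon 6 of the longest transcript. It was the highest of the 8 in both libraries, at percentiles 62.6 and 71.3 of open promoters. At the 5' end of the gene the peak was 2.14 and 4.81 (3.48 ± 1.89). By 5' ends alone, the mean of Egf was still the highest among the members with a peak in both libraries. In replicate 1, however, Egf then lay below Ptger3 at 2.28 and Ppp1r1a at 2.25.

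Ppp1r1a encodes inhibitor 1 of protein phosphatase 1, which acts once cyclic AMP signalling has phosphorylated it. Its promoter peak was 2.25 and 1.55, percentiles 22.1 and 19.6, with 2 footprints in each library. It was the member promoter with the largest drop from replicate 1 to replicate 2, by 0.53 on the log2 scale.

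**Figure D1:**
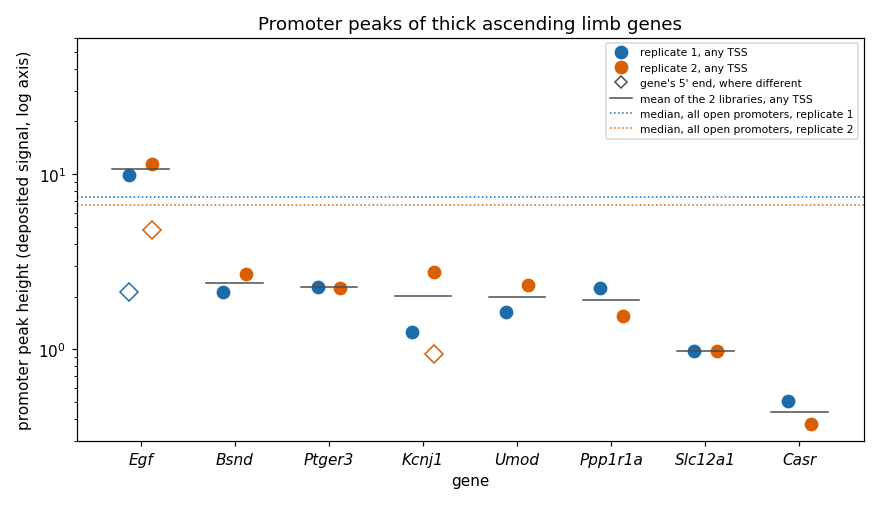
Height of the highest promoter peak (deposited signal, log axis) of each gene in both libraries, with the value at the gene's 5' end as open diamonds where it differs and the medians of all open promoters as dotted lines. Egf stood above both medians at its internal TSS, from Bsnd to Ppp1r1a the ranges of neighbours overlapped, and Slc12a1 and Casr lay below them.

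In order of mean height the promoters ran Egf, Bsnd, Ptger3, Kcnj1, Umod, Ppp1r1a, Slc12a1 and Casr, as the plot of promoter heights by library shows. Between Bsnd and Ppp1r1a each gene's range over the 2 libraries overlapped that of the next, so their order is not resolved. Egf lay above all of them in both libraries, while the higher value of Slc12a1, 0.979, was below the lower value of Ppp1r1a, 1.55. Casr in turn lay below Slc12a1 in both libraries.

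Over the gene bodies and 10 kb on each side, the 8 loci held 40 and 71 peaks and 75 and 206 footprints. Their median density was 0.128 peaks per kb (0.5 added to each count, mean of both libraries), against 0.113 over all protein-coding genes. Single loci ran from percentile 33.2 for Ptger3 to 83.5 for Bsnd among all genes. The loci thus spread over the middle of the range of all genes, with Bsnd the densest and Kcnj1 next at percentile 65.9.

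**Figure D2:**
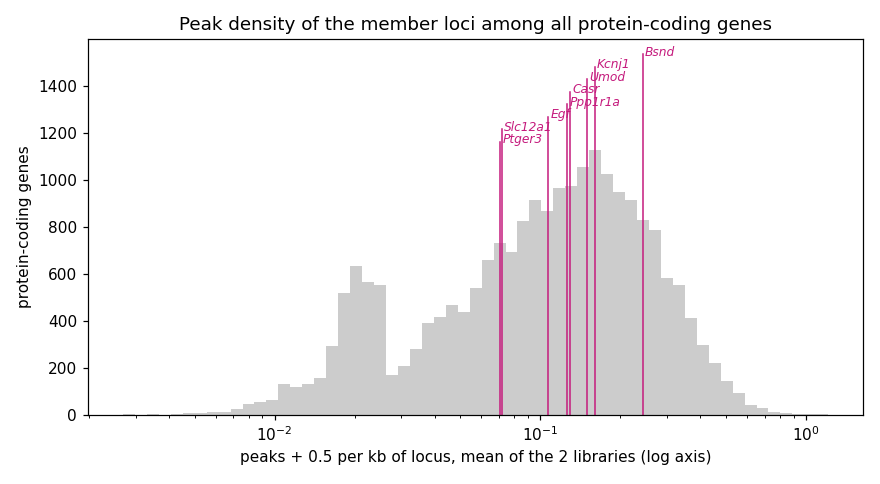
Histogram of peak density (peaks plus 0.5 per kb of locus, mean of the libraries, log axis) over all protein-coding genes, with the 8 loci as vertical lines of arbitrary height. The lines run from 0.0707 for Ptger3 to 0.243 for Bsnd, and the median of all genes is 0.113.

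Merged over both libraries the peaks formed 70 sites, of which 39 were called in both libraries, 31 in replicate 2 alone and none in replicate 1 alone. By their midpoints 41 sites lay in introns, 8 in exons, 14 upstream and 7 downstream of the genes, and 13 were promoter sites. The sites of replicate 2 alone were low, with a median height of 0.452 against 1.43 in replicate 2 at the shared sites. One of the 31 was different: beside the internal TSS of Egf (chr3:129725241-129725460, intron 5) replicate 2 had a peak of 7.99. There replicate 1 had no peak of its own, but all 220 bases were listed below a false discovery rate of 0.05, the lowest being 1.25e-37, and it had 4 footprints against 5. In the other 30 sites of replicate 2 alone, no base was listed in replicate 1.

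**Figure D3:**
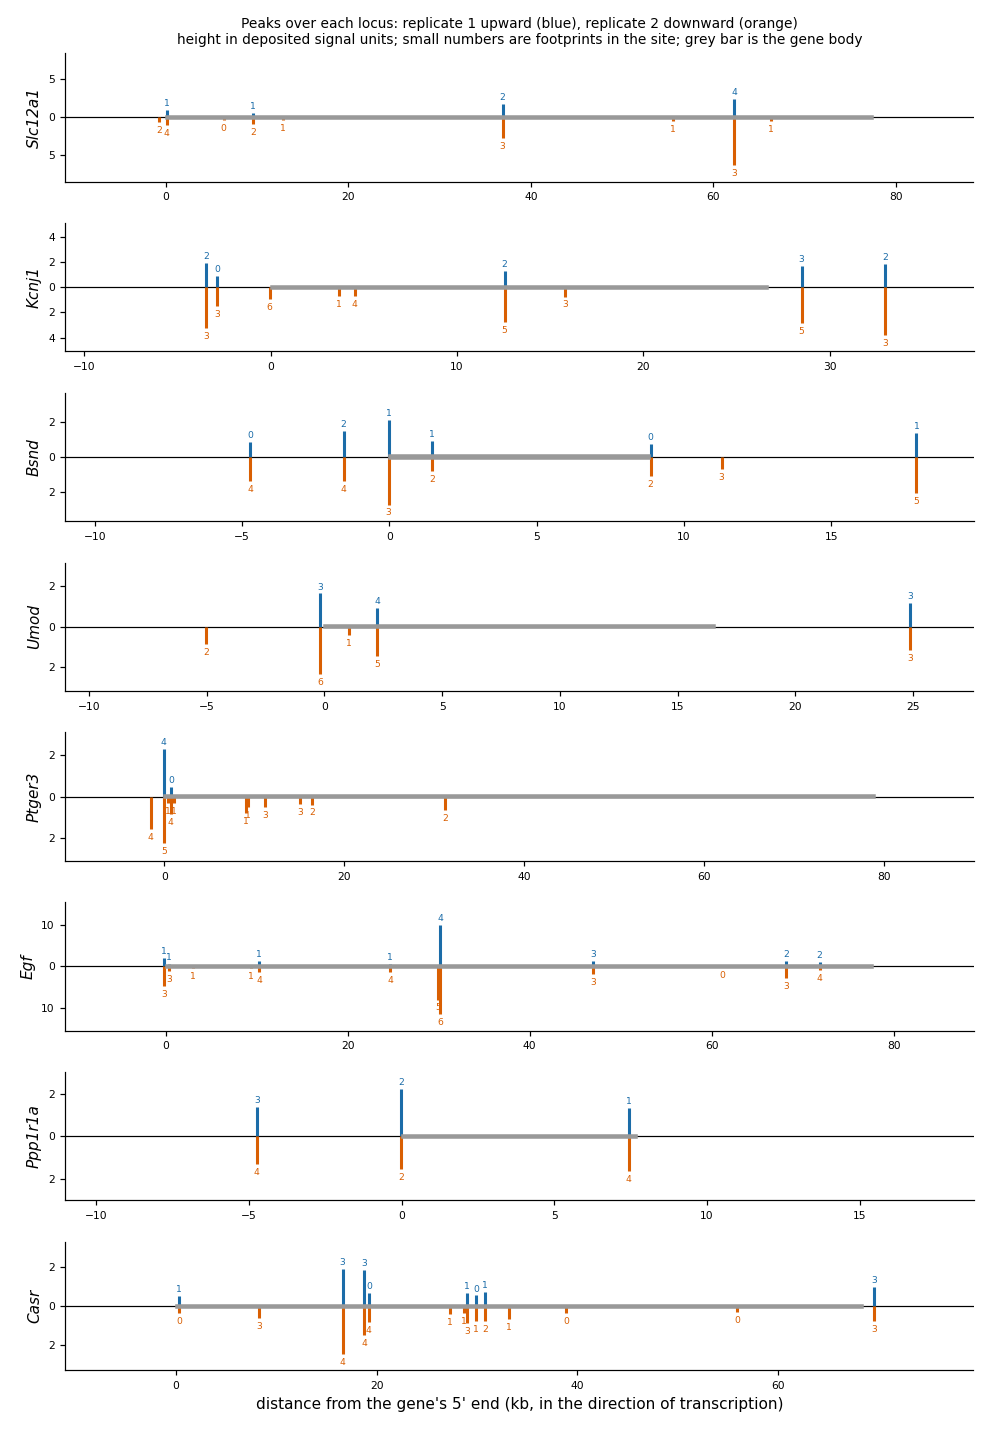
Every peak over the 8 loci by distance from the gene's 5' end (kb), with replicate 1 drawn upward and replicate 2 downward (deposited signal), the number of footprints at each site and the gene body in grey. The highest sites of Slc12a1 and Casr lie inside the gene, 62.3 and 16.6 kb from the 5' end, and the highest of Kcnj1 by the mean of both libraries lies downstream.

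Slc12a1 had 4 and 9 peaks over 97.5 kb of locus. Its highest site lay in intron 21 of a gene of 27 exons, 62.3 kb from the 5' end, with heights of 2.40 and 6.26, the sequence of which is printed above. That site was 2.46 times as high as the promoter in replicate 1 and 6.4 times in replicate 2, and it had the most footprints of the locus in replicate 1, 4, with 3 in replicate 2. A second site in intron 14 (chr2:125189321-125189500) had 1.803 and 2.77, and the next in intron 4 (chr2:125161981-125162200) had 0.590 and 0.849. The stronger sites of this gene were therefore in its introns in both animals.

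Kcnj1 had 5 and 9 peaks and 10 and 40 footprints. By the mean of both libraries its highest site lay downstream of the gene at chr9:32405381-32405560, 33.0 kb from the 5' end, with 1.84 and 3.78. A site 3.44 kb upstream (chr9:32368961-32369140) had 1.89 and 3.24, and another downstream (chr9:32400881-32401080) had 1.65 and 2.87 and the most footprints shared by both libraries, 3 and 5. All 3 of these sites were higher than the internal promoter peak in both libraries, and the weak 5' end lay between them.

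Casr had 8 and 14 peaks, and its promoter peak was the lowest of the 8 peaks of this locus in replicate 1. In intron 1, the sites chr16:36545441-36545620 and chr16:36543241-36543480 had 1.91 and 2.43, and 1.84 and 1.48. Both had 3 and 4 footprints, as many as any site of the locus. A site downstream of the gene (chr16:36492521-36492720) had 0.966 and 0.755. The 2 intronic sites, 16.6 and 18.8 kb from the 5' end, were 3.78 and 6.53 times, and 3.64 and 3.97 times, as high as the promoter.

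Bsnd, a gene of only 8.83 kb, had 6 and 7 peaks, and at this locus the promoter was the highest site. A downstream site (chr4:106474301-106474480) followed with 1.33 and 2.06 and with 1 and 5 footprints, then a site 1.56 kb upstream (chr4:106493741-106493940) with 1.49 and 1.38, and another 4.72 kb upstream (chr4:106496875-106497140) with 0.846 and 1.34. Umod likewise had its highest site at the promoter, among 4 and 6 peaks. Its next sites were in exon 3 (chr7:119476601-119477460), with 0.932 and 1.43 and 4 and 5 footprints, and downstream (chr7:119454301-119454480), with 1.20 and 1.13.

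Ptger3 had 2 peaks in replicate 1 and 11 in replicate 2, the most unequal counts of the 8 loci. Only the promoter and a site in exon 1 (chr3:157567501-157567740, 0.479 and 0.825) were shared. The other sites were in replicate 2 alone, the highest being 1.56 with 4 footprints, 1.52 kb upstream (chr3:157565281-157565460). Replicate 2 had 1.72 times finer height steps, and its part in these counts was not tested.

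Egf had 8 and 12 peaks over 97.8 kb. Away from its promoters the highest shared site was in intron 20 (chr3:129687081-129687260) with 1.44 and 2.89. Intron 13 (chr3:129708301-129708460) had 1.40 and 1.87, and intron 1 (chr3:129744921-129745100) had 1.32 and 1.26, the last within reach of the TSS of the gene Gm42650. No such site came near the internal promoter of 9.95 and 11.5. Ppp1r1a had 3 peaks in each library, the only locus with equal counts. Beside the promoter these were 4.74 kb upstream (chr15:103542641-103542840, 1.38 and 1.31, with 3 and 4 footprints) and in exon 7, the last exon (chr15:103530461-103530660, 1.34 and 1.63). The exon 7 site was slightly higher than the promoter in replicate 2, by a factor of 1.05, and lower in replicate 1.

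The member peaks of replicate 1 recurred in replicate 2. All 40 peaks of replicate 1 were overlapped by a peak of replicate 2 (100%, exact 95% binomial interval 91.2 to 100%), against 87.6% of all peaks of replicate 1. Of the 71 peaks of replicate 2, 40 were overlapped in replicate 1 (56.3%, 44.0 to 68.1%), against 62.2% of all peaks of replicate 2, so that in this direction the members were near the whole list. These intervals cover counting error over peaks only.

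Footprints stood in 33 of the 40 member peaks of replicate 1 (82.5%, 67.2 to 92.7%) and in 66 of the 71 of replicate 2 (93.0%, 84.3 to 97.7%). Over all peaks the shares were 73.3% and 86.7%. Of the footprints in the loci, 68 of 75 and 182 of 206 overlapped peaks (90.7% and 88.3%), against 91.3% and 87.2% of all footprints. The footprints of replicate 1 were overlapped by one of replicate 2 in 60 of 75 cases (80.0%), against 77.2% of all its footprints. The reverse held for 55 of 206 (26.7%), against 33.4%. Of the 39 shared sites, 32 held footprints in both libraries, and the share over all shared sites of the genome is not given here. Most footprints of replicate 2 had no counterpart in the smaller list of replicate 1, in the member loci as in the genome.

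Of the 39 shared sites of the 8 genes 28 were higher in replicate 2 (71.8%), against 64.3% of all shared sites and 67.5% of those in the members' height range. Of the 39, 26 lay above the median of all shared sites, and the median of the log2 height ratio, replicate 2 over replicate 1, was 0.41, a factor of 1.33. Over all 108748 shared sites of the genome the median was 0.18, with quartiles of -0.15 and 0.51, and over those in the height range of the members it was 0.22. The members' median was 0.28 at the 10 promoter sites and 0.49 at the 29 other sites.

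By locus, Kcnj1 had the highest median, 0.80, and all 5 of its shared sites were at least 0.78 higher in replicate 2. Slc12a1 followed with 0.57 and its 4 sites ranged from 0.01 at the promoter to 1.38 in intron 21, which is percentile 99.0 of all shared sites. Egf had 0.53, Umod 0.51, Bsnd 0.48, Ptger3 0.38 and Casr 0.20. Ppp1r1a alone had a median below 0, of -0.08. All loci but Ppp1r1a thus had a median above the 0.18 of all shared sites. Each median rests on 2 to 8 shared sites, and a joint shift of the 8 genes was not tested.

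Loci of other kidney cell types are given for comparison. Lrp2 of the proximal tubule had a median of 0.63, as high as the thick ascending limb loci, and Slc34a1 of the same segment had -0.13. Atp6v1b1 of intercalated cells had 0.55, Kdr of endothelium 0.23, Pdgfrb of stroma 0.13 and Slc12a3 of the distal convoluted tubule 0.10. Aqp2 had -0.09 over 2 sites. These marker medians ran from -0.13 to 0.63, against -0.08 to 0.80 for the member loci, and the part of cell composition in the ratios was not tested.

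**Figure D4:**
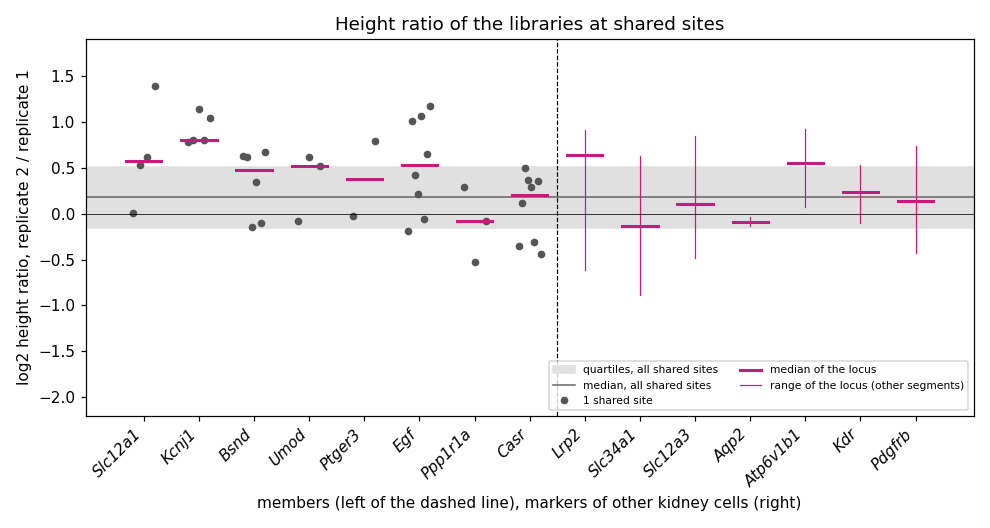
Log2 ratio of peak height, replicate 2 over replicate 1, at each shared site of the 8 genes (points) with the locus median (bar), and the median and range for markers of other kidney cells. The grey band spans the quartiles of all shared sites, -0.15 to 0.51, and every Kcnj1 point lies above it.

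The other genes of the segment were described from a list of 34 in 7 roles, chosen with earlier results of these data known. Of these, 30 (88.2%) had a promoter peak in both libraries, against 65.3% of all protein-coding genes, and 4 had one in neither. The 8 transport genes all had one, among them the sodium pump subunit gene Atp1b1 at 8.16 and 6.90, which were separate peaks at the same TSS. Kcnj10 and Kcnj16, the subunits of the basolateral potassium channel, had 3.71 and 4.47, and 1.93 and 3.50. Atp1b1 was thus above both channel subunit genes in each library, whereas Fxyd2, of another pump subunit, lay below both at 1.28 and 1.75.

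All 6 genes for kinases and trafficking had an open promoter. The highest were Oxsr1, a kinase that activates the cotransporter, at 18.2 and 20.9, and Wnk1, the kinase upstream of it, at 17.6 and 11.3. Cab39, an adaptor of these kinases, had 7.22 and 5.18, and Maged2, mutated in a transient human antenatal Bartter syndrome, had 5.49 and 6.72. Hpn, the protease that releases uromodulin from the cell, had 6.81 and 6.55. The promoters of these regulators were higher than that of Slc12a1 in both libraries.

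Of the 5 claudin genes, which form the paths between the cells, Cldn3, Cldn10 and Cldn16 had a promoter peak in both libraries and Cldn14 and Cldn19 had none. Cldn16, whose loss causes renal magnesium wasting in humans, had only 0.367 and 0.303, while Cldn10 had 2.14 and 1.61 at a TSS 66.9 kb inside the gene. The 4 hormone receptor genes all had peaks, from 0.316 and 0.378 for the calcitonin receptor gene Calcr to 2.99 and 2.38 for the parathyroid hormone receptor gene Pth1r, whose highest promoter peak lay at the 5' end in replicate 1 and 3.45 kb inside the gene in replicate 2. The 2 macula densa genes were low too, Nos1 having 0.547 and 0.358 and Ptgs2 0.573 and 0.949. Calcr, the glucagon receptor gene Gcgr and both macula densa genes thus lay below 1 in both libraries, as Casr did.

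Among 8 transcription factor genes, 6 had a promoter peak in both libraries and Tfap2b and Foxq1 had none. The highest was Pou3f3, needed for loop formation in mice, at 6.26 and 6.94, with Esrrg next at 3.56 and 3.50, and Irx2 had 3.51 and 3.25. These values differed little between the animals. Where the window was widened to 2000 bp, all 34 genes had a peak, the 4 without one at 500 bp included. The share of all protein-coding genes at that window is not given here.

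**Figure D5:**
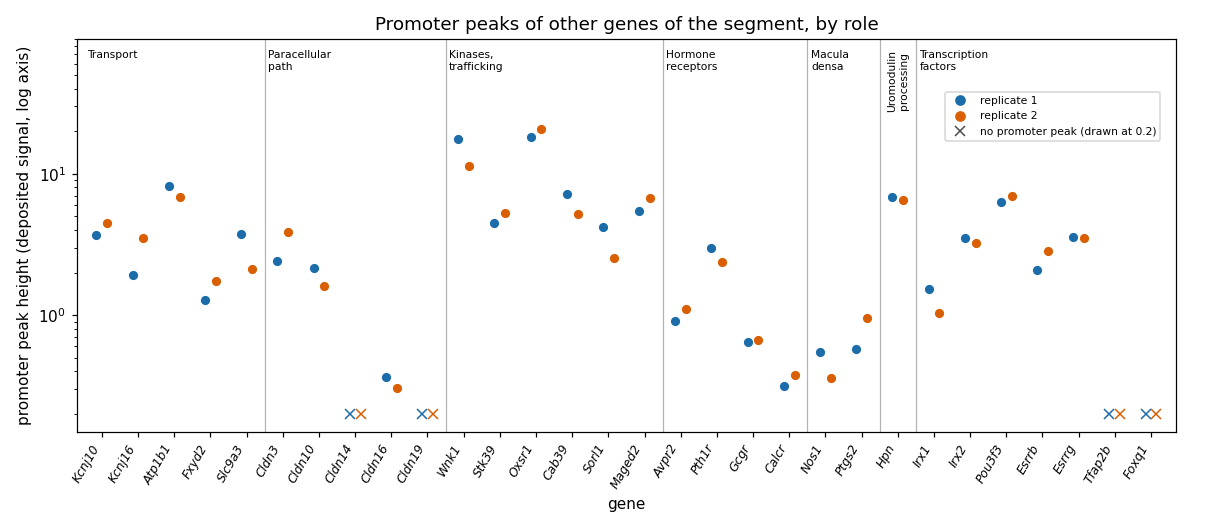
Promoter peak height (deposited signal, log axis) of other genes of the segment in both libraries, by role, with crosses for genes without a promoter peak. Oxsr1 reaches 18.2 and 20.9 and Wnk1 17.6 and 11.3, whereas the receptors and macula densa genes stay at 2.99 or below.

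The promoters of the 8 genes, taken as 250 bases before and 50 after the 5' end, were poor in CpG. Their median ratio of observed to expected CpG was 0.169 against 0.524 over 21931 protein-coding promoters. Umod and Egf held no CpG at all in this window, and Slc12a1, Bsnd, Casr and Kcnj1 lay at percentiles 11.8, 14.6, 26.1 and 30.2. Ptger3 and Ppp1r1a differed from the rest, at percentiles 80.0 and 66.2. In height Ptger3, at 2.28 and 2.25, stood beside the CpG-poor Bsnd at 2.11 and 2.68. The highest promoter peaks of Egf and Kcnj1 lay at internal TSSs outside this window. A relation of CpG content to peak height was not tested.

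The internal promoter of Egf printed above carried the letters GCATGCGC, the core of the NRF1 motif, at 2 places and on both strands, so that 4 overlapping matches were counted. All of them lay wholly in capitals, that is in footprints of both libraries. This motif was searched after the sequence had been read. It was in 1 of 40 and 1 of 71 member peaks (150 bp at the midpoint, 2.5% and 1.41%), against 1.04% and 0.841% of all peaks. No other member site held it.

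The CTCF motif, also searched after reading the sequences, matched in 8 of the 70 sites. In the intron 21 site of Slc12a1 and the downstream site of Kcnj1 the match lay in the capitals printed above. The others were in Egf introns 20 and 1, in the downstream and the nearer upstream site of Bsnd, in exon 7 of Ppp1r1a and in the upstream site of Ptger3 called in replicate 2 alone. In 150 bp windows it was in 17.5% and 11.3% of member peaks, against 8.39% and 7.02% of all peaks. At the 3 shared sites with the widest gap between libraries among these, the log2 ratio was 1.38 in Slc12a1, 1.04 in Kcnj1 and 1.01 in Egf intron 20, and at the other 4 it ran from -0.11 to 0.63. At shared member sites without a match it ran from -0.53 at the Ppp1r1a promoter to 1.17 at the 5' end of Egf. A relation of the motif to the ratio was not tested.

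Of the motifs of kidney and general factors, the NFI letters TTGGCA were in 9 of 40 and 17 of 71 member peaks (22.5% and 23.9%), against 12.7% and 13.8% of all peaks. In the printed Umod promoter they occurred at 2 places, once wholly in capitals and once with no base in capitals, and in both printed Kcnj1 sites they had no base in capitals. In Umod the HNF1 letters GTTAAT had 2 of their 6 bases in capitals. These HNF1 letters were in 4 and 6 member peaks (10% and 8.45%, against 4.32% and 4.64%), and in the printed Casr site they lay, on the reverse strand, within capitals. The full HNF1 motif GTTAATNAT was in 1 member peak of each library, at 2.5% and 1.41% against 0.754% and 0.751%. The estrogen-related receptor motif TCAAGGTCA and the POU motif ATTTGCAT were in no member peak, and in 0.363% and 0.463%, and 0.667% and 0.714%, of all peaks. The shorter receptor core AAGGTCA was in 3 and 4 member peaks (7.5% and 5.63%, against 4.17% and 4.63%). The SP letters CCCGCCC were in 1 member peak of each library (2.5% and 1.41%, against 10.4% and 8.40%). The GATA letters AGATAA and the HNF4 letters CAAAGTCCA were in no member peak, against 3.84% and 4.35%, and 0.796% and 0.823%, of all peaks. In the promoter windows at the 5' end, however, the GATA letters were in 2 of the 8 genes, Slc12a1 and Kcnj1 (25%, against 10.2% of all protein-coding promoters). All motifs were searched on both strands, and these are matches of letters, with counts too small to compare with the shares over all peaks or promoters.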

How the data were processed

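DNase-seq data of whole kidney from 2 male mice, 1 group, were used as deposited. The donor code is shared between the libraries in the labels, but biosample and animal number differ, and separate animals were assumed. Peak heights are a signal on mm10 that the authors deposited; peaks were called per library, per the file descriptions. Every deposited footprint carries a false discovery rate (q-value) of 0.01, and the deposited per-base q-values stop at 0.05. The sources used here do not give the aligner, the callers, their versions, or whether alignment allowed for CAST/EiJ alleles. The steps of low heights give the relative depth only if heights were divided by depth, which is not known, and absolute depth is unknown.

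The longer, looser of the deposited peak lists was used, and the stricter one served as an alternative. Promoter peaks overlapped a window of 500 bp around any GENCODE M21 basic TSS, in both directions; loci extended 10 kb beyond the gene at both ends. Overlap was at least 1 bp. Percentiles are descriptions, and no test was run, since 1 group of 2 libraries gives no contrast. The members, gene lists and motifs were chosen with earlier results of these data known. Named sites were, per locus, the highest promoter peak, the 3 highest other shared sites and the site with the most footprints; of the list of 34 genes, the 8 highest and those without a peak, and others chosen after their values were seen. Some genes of the lists and 1 promoter sequence are not reported here, although the genes stay in the counts. Motifs were searched in 150 bp at each peak's midpoint and 40 bp at each footprint. Overlap counting was tested on simulated intervals. Python 3.11.15, numpy 2.4.6, pandas 2.3.3, scipy 1.17.1 and matplotlib 3.10.9 were used.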

Additional observations from a re-analysis of the deposited data

How the results depend on the processing

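No paired analysis was possible because the study has 1 group. With the stricter peak list, 7 of the 8 genes had a promoter peak in both libraries, all but Casr, as did 26 of the 34 list genes instead of 30. The share of all protein-coding genes with that list is not given here. The median locus density fell from 0.128 to 0.0982 peaks per kb with that list and was 0.0998 without peaks within 1 kb of a TSS. The share of member peaks holding a footprint, 87.7% as the mean of both libraries, was 97.2% with the stricter list. The share of replicate 1 peaks overlapped in replicate 2 was 82.5% where 50% reciprocal overlap was asked, instead of 100%. The densities, footprint share and overlap share at these settings are of the members alone. Their values over all genes or peaks at the same settings are not given here, so those comparisons were not repeated. Counting the 5' end alone took the promoter height of Egf from 10.7 to 3.48. Leaving out either library gave densities of 0.107 to 0.146, footprint shares of 82.5% to 93.0%, and 8 to 8 and 30 to 30 genes with a promoter peak. The overlap share needs both libraries and has no such value. The median library ratio, with settings chosen after seeing the data, was 0.35 with the stricter list and 0.35 to 0.61 leaving out each gene in turn. This log2 ratio thus kept its sign at each of these settings. The counts, heights, densities and shares have no sign, so a reversal could not be seen in them. Read numbers are unknown, and 30 of the 31 sites of replicate 2 alone had no listed base in replicate 1; the part of depth was not tested.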

Other observations

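Some loci of the 34 other genes of the segment were far denser than those of the 8 members. Fxyd2, which encodes the gamma subunit of the sodium pump, had 18 and 23 peaks and stood at percentile 99.8 of all protein-coding genes. Pou3f3 and Irx2 had 10 and 17, and 6 and 19 peaks, both at percentile 98.9, and Pth1r had 15 and 18 peaks (percentile 95.7).

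Irx1 was an exception to the higher peak numbers of replicate 2, with 12 peaks in replicate 1 and 4 in replicate 2, all 4 of its shared sites having a median log2 ratio of 0.26. Wnk1, with a promoter of 17.6 and 11.3, had a locus at percentile 26.6, with 6 and 8 peaks. The 4 genes without a promoter peak still had peaks in their loci: Cldn14 had 10 and 13, Cldn19 4 and 4, Tfap2b 6 and 10 and Foxq1 5 and 7.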
